A study of Mus musculus with 6 samples.

Results

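Prdx3, Prdx4, Txn1 and Nnt encode enzymes that remove peroxides or supply the reducing power for it, in the mitochondria, the endoplasmic reticulum (ER) and the cytosol. Their transcripts were compared between hearts of Pgc1b knockout mice and hearts of wild-type mice. Every probe set with values that the platform annotation assigns to 1 of these 4 gene symbols was taken, which gave 5 probe sets of the 643 measured, for 4 of the 494 named genes. Prdx4 had 2 probe sets and the other genes 1 each. The genes were selected on earlier results of the same 6 arrays, in which the knockout minus wild-type difference of Prdx4 stood out, so differences between the genotypes are given here as a description and no test of them is read. The knockout group held 3 hearts of mice lacking Pgc1b (current symbol Ppargc1b), and the wild-type group held 3 hearts of mice with the gene. All 6 mice were of a mixed sv129 and C57BL/6 background, and each heart was read on its own Affymetrix array of the 3' expression type. The hearts are biological replicates per the labels. No age, sex or strain share of the single animals is stated in those labels.

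Peroxiredoxins reduce hydrogen peroxide with a reactive cysteine, and many are then returned to their active form by a thioredoxin of their own compartment. Prdx3 works in the mitochondrial matrix and Prdx4 in the ER, where it passes oxidising equivalents on to protein disulphide isomerases during protein folding. Txn1 is the thioredoxin of the cytosol and is itself reduced with electrons from NADPH. Nnt, the transhydrogenase of the inner mitochondrial membrane, uses the proton gradient to make NADPH in the matrix, which feeds the peroxide-removing enzymes there. Heart muscle is rich in mitochondria and depends on these systems. Pgc1b encodes a coactivator that joins DNA-binding factors, the oestrogen-related receptors among them, at genes of mitochondrial energy use.

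Stretches of 250 bases before a RefSeq start site of each peroxiredoxin gene are shown because the deleted coactivator acts through factors bound at promoters. Whether it acts at these genes was not tested. The stretches are RefSeq sequences of build GRCm38.p6, on the minus strand, chrX:155338461-155338710 for Prdx4 and chr19:60874539-60874788 for Prdx3. The Prdx4 stretch precedes the start site that the RefSeq promoter table lists, which lies inside the gene's full annotated extent (chrX:155323918-155342272), so it does not precede the gene as a whole. Sequence before the outer end of Prdx4 was not scanned. The Prdx3 and Txn1 stretches adjoin the 5' ends of the annotated genes. Capitals mark matches to the motifs named after them.
Prdx4: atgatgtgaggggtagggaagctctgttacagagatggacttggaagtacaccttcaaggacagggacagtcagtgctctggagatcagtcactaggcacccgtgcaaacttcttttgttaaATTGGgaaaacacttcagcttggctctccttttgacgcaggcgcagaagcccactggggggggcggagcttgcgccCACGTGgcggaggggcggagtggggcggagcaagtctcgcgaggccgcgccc
Prdx3: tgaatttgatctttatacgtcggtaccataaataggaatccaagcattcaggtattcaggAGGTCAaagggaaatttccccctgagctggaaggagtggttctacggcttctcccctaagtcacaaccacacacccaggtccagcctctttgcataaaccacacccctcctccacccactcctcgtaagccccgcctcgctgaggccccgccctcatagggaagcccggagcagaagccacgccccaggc

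In the Prdx4 stretch the capitals are a CCAAT box on the opposite strand (ATTGG, starting at position -128 from that inner start site) and an E-box (CACGTG, at position -52). In the Prdx3 stretch they are a nuclear receptor half-site (AGGTCA, at position -190). Of 32851 mouse promoter stretches of this length, 33.8% held a CCAAT box, 6.02% an E-box and 14.0% a half-site, on either strand. The oestrogen-related receptor site AAGGTCA, which contains the half-site, was in 4.08% of all stretches and was not found in those of Prdx3, Prdx4 or Txn1. The letters of the antioxidant response element core (TGACNNNGC, 10.2% of all stretches), of the NRF1 site (GCGCATGC, 2.26%) and of the unfolded protein response element core (TGACGTG, 1.65%) were not in these 3 windows either. Txn1 had no match to any of the 7 motifs. GC content was 58.8% for Prdx4, 55.6% for Prdx3 and 64.0% for Txn1, against a median of 52.4% over all stretches. A match describes letters and does not show binding, and the arrays did not measure these regions.

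Values are log2 expression levels as deposited, after normalization across arrays, so 1 unit is a doubling, and a difference is read against the rest of each array. The arrays resembled each other closely, with correlations of 0.9932 to 0.9965 across probe sets between any pair of arrays. The targeted gene was not analysed here, so the labels were not checked against it. Cardiac actin Actc1, a defining heart muscle gene, stood at 14.12 ± 0.01 in knockout and 14.11 ± 0.03 in wild-type hearts (SD, n = 3 each). The hybridisation spikes, control RNAs added in a fixed amount, were lower on all knockout arrays (9.55, 9.68 and 9.32) than on all wild-type arrays (10.15, 9.84 and 9.69). The 3' minus 5' value of the Actb control probe sets, which tracks RNA quality, was 0.63, 0.73 and 0.51 on the knockout arrays and 0.75, 0.74 and 0.77 on the wild-type arrays. For both measures the exact two-sided permutation p was 0.1, the smallest that 3 against 3 arrays allow. The Gapdh 3' minus 5' value did not separate the genotypes, with means of 0.078 in knockout and 0.079 in wild-type hearts. Nor did the poly-A spikes, at 7.14 ± 0.58 in knockout and 7.08 ± 0.43 in wild-type hearts (SD, permutation p = 0.9).

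Prdx4 was the gene of the 4 whose values lay apart between the genotypes, higher in the knockout hearts in both of its probe sets. The dimmer probe set (1416166_a_at) read 6.40, 6.47 and 6.30 in knockout hearts, against 5.90, 5.99 and 5.99 in wild-type hearts. All knockout values lay above all wild-type values, and the gap between the lowest knockout and the highest wild-type heart (0.30) was wider than the spread within either genotype (0.17 in knockout and 0.09 in wild-type hearts). The group levels were 6.39 ± 0.09 and 5.96 ± 0.05 for knockout and wild-type hearts (SD, n = 3 each), a difference of 0.43 with a standard error of 0.08 and a 95% interval of 0.25 to 0.60 from limma, or a knockout level of 135% of wild type (119% to 152%).

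The brighter probe set of Prdx4 (1416167_at) read 8.73, 8.67 and 8.67 in knockout hearts, against 8.38, 8.47 and 8.64 in wild-type hearts. The groups were again apart, but by only 0.02, because wild-type replicate 3 lay close to the knockout hearts. The levels were 8.69 ± 0.03 in knockout and 8.50 ± 0.13 in wild-type hearts (SD, n = 3 each), a difference of 0.19 (standard error 0.09, interval -0.01 to 0.39) and a knockout level of 114% of wild type (99.3% to 131%). When each array was left out in turn, this difference ran from 0.13 to 0.26, the highest without wild-type replicate 3, and that of the dimmer probe set from 0.39 to 0.47. With the spike level of each array as a covariate the brighter probe set differed by 0.07 ± 0.12 (SE) and the dimmer one by 0.45 ± 0.12. After each array was centred on its median, and after a further quantile normalization, the groups of the brighter probe set overlapped (differences of 0.15 and 0.17), while those of the dimmer one stayed apart (0.38 and 0.39). In whole hearts, more cells that carry a transcript and more transcript per cell cannot be told apart.

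**Figure D1:**
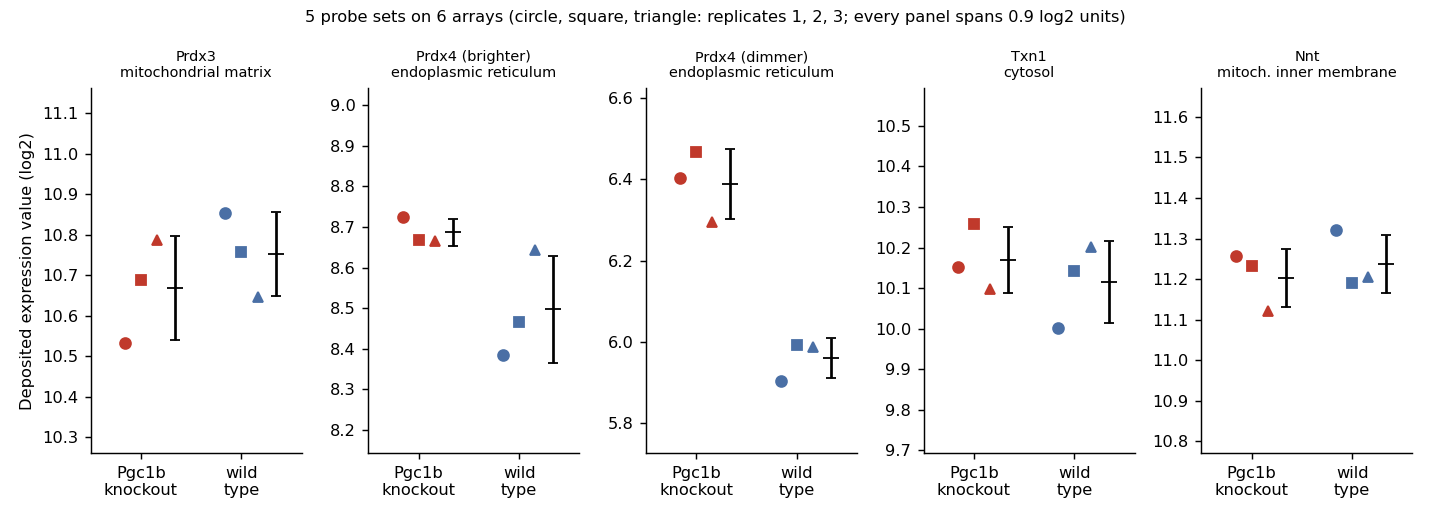
Deposited log2 values of the 5 probe sets, with the 3 Pgc1b knockout hearts at the left and the 3 wild-type hearts at the right of each panel; black bars are the mean ± SD of 3 arrays. Only in the Prdx4 panels do all knockout points lie above all wild-type points, by 0.30 in the dimmer and 0.02 in the brighter probe set.

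Prdx3, the peroxiredoxin of the mitochondrial matrix, read 10.53, 10.69 and 10.79 in knockout hearts and 10.85, 10.76 and 10.65 in wild-type hearts. The groups overlapped widely, and the highest knockout heart lay above 2 of the wild-type hearts. The levels were 10.67 ± 0.13 in knockout and 10.75 ± 0.10 in wild-type hearts (SD, n = 3 each), a difference of -0.08 (interval -0.30 to 0.14) that was smaller than the spread within either group. The interval covers knockout levels from 81.1% to 110% of wild type. The difference kept its sign in all 15 alternative settings, between -0.14 and -0.01. Some of these, such as a filter on probe sets or a replicate block, cannot move it, so its sign was fixed there.

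Txn1, the thioredoxin that serves the cytosolic peroxiredoxins, read 10.15, 10.26 and 10.10 in knockout hearts and 10.00, 10.14 and 10.20 in wild-type hearts. The values were interleaved. The difference was 0.05 (interval -0.14 to 0.25), with levels of 10.17 ± 0.08 in knockout and 10.12 ± 0.10 in wild-type hearts (SD, n = 3 each), and its sign turned without wild-type replicate 1 (-0.0023). The interval covers knockout levels from 90.7% to 119% of wild type.

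Nnt was of interest for a second reason. C57BL/6J mice carry a deletion of several exons within this gene, which 129 mice and some other C57BL/6 substrains lack, so on a mixed background hearts could carry different Nnt alleles. The labels do not name the C57BL/6 substrain. The probe set read 11.26, 11.23 and 11.12 in knockout hearts and 11.32, 11.19 and 11.20 in wild-type hearts. No heart stood apart from the others: all 6 values lay within 0.20, a 1.15-fold range, and the widest step between neighbouring values was 0.07, or 34.6% of that range, where the median probe set had 43.2%. The median range over all 643 probe sets was 0.34, and 15.1% of them had a range as small as that of Nnt or smaller. The levels were 11.20 ± 0.07 in knockout and 11.24 ± 0.07 in wild-type hearts (SD, n = 3 each), a difference of -0.04 (interval -0.21 to 0.14). The sign of this difference turned without knockout replicate 3 and without wild-type replicate 1 (0.01 in each case) and with the spike covariate (0.08). Where the probes lie relative to the exons deleted in C57BL/6J was not known here, so equal values do not show equal alleles.

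Set against the whole table, the members spanned its middle and its upper edge. The median size of a difference over all probe sets was 0.10 in either direction, and 95% of probe sets differed by less than 0.30. The dimmer Prdx4 probe set had the 12th largest difference of the 643 by size, the brighter one ranked 118, Prdx3 ranked 366, Txn1 449 and Nnt 509. The spread within genotypes was not unusual for any of them, with pooled SDs of 0.07 to 0.12 against a median of 0.12. The groups did not overlap in 2 of the 5 member probe sets, both of Prdx4 and both higher in knockout hearts. Over the table the groups did not overlap in 18.7% of probe sets, and in 9.64% with the knockout hearts higher. Because earlier results of this contrast chose the genes, nothing is read from these counts. In limma with Benjamini-Hochberg adjustment over the 643 probe sets, 0 of the 5 and 0 of the 643 (0.00%) had an adjusted p under 0.05. At an unadjusted p under 0.05 there were 66 probe sets (10.3%), among them 1 member, the dimmer Prdx4 probe set.

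**Figure D2:**
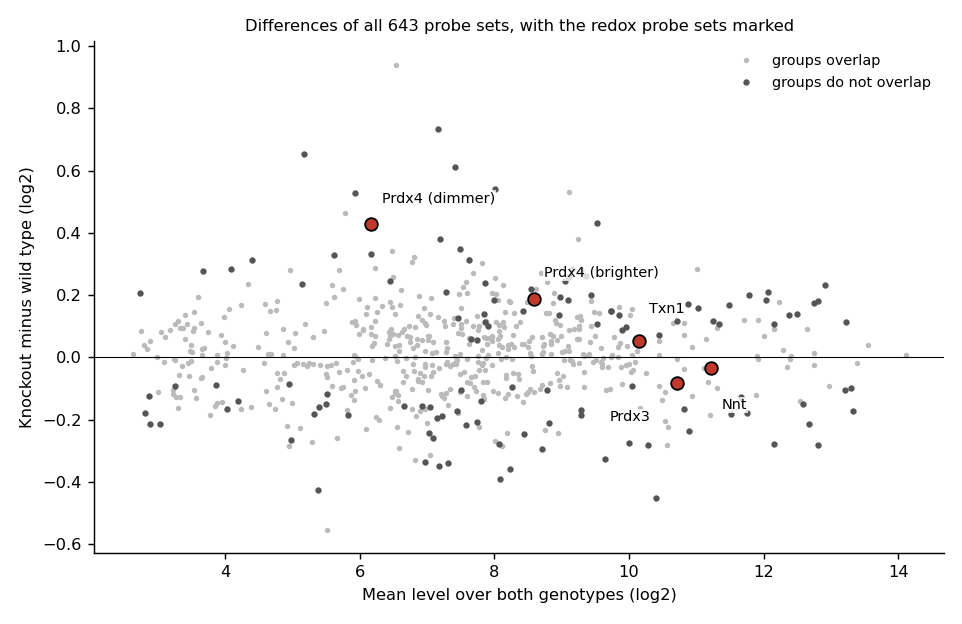
Knockout minus wild-type difference (log2) of each of the 643 probe sets against its mean level (log2), with the 5 probe sets of Prdx3, Prdx4, Txn1 and Nnt in red; dark grey points are probe sets whose groups do not overlap. The dimmer Prdx4 probe set lies at 0.43, near the upper edge of the cloud, and Prdx3, Txn1 and Nnt lie near 0.

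The Prdx4 probe sets had the same sign but different sizes. Such disagreement was measured across the 88 genes that had more than 1 probe set with values. In 59 of them all probe sets of the gene had the same sign, and the median distance between the differences of the brightest and the dimmest probe set was 0.09. For Prdx4 that distance was 0.24, the 14th largest of the 88. Prdx4 and Kitl, the gene of the ligand of the Kit receptor, were the only genes of the 88 in which every probe set had all knockout hearts above all wild-type hearts, and no gene had all of them below in every probe set. The probe sets of Kitl differed by 0.28 and 0.29. Prdx4 was chosen on its knockout minus wild-type difference, so nothing is read from its place among the 88. After centring or a further quantile normalization, the groups of its brighter probe set overlapped. RefSeq lists 2 curated transcripts for Prdx4. Which transcript each probe set reads was not tested.

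**Figure D3:**
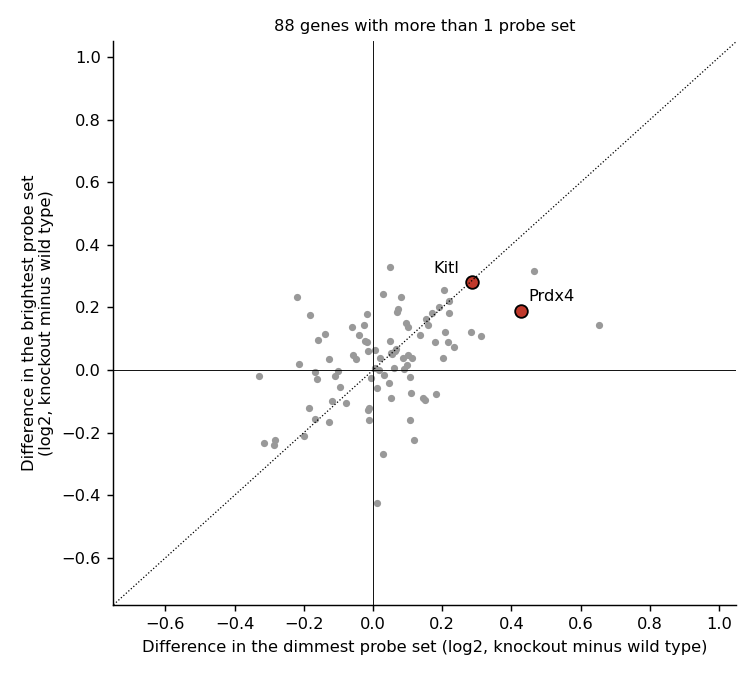
Each point is 1 of the 88 genes with several probe sets, with the knockout minus wild-type difference (log2) of its dimmest probe set on the horizontal and of its brightest on the vertical axis; the dotted line marks equal differences. Prdx4 (0.43 and 0.19) lies to the right of the line and Kitl (0.29 and 0.28) on it. Both are in red because their groups did not overlap in any probe set in the deposited values.

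Few neighbours of these enzymes had values. In the ER, 3 of 21 genes of oxidative folding and ER stress were measured, and 0 passed the test over the table. The chaperone Hsp90b1 read 9.50, 9.58 and 9.56 in knockout hearts and 9.74, 9.47 and 8.99 in wild-type hearts, a difference of 0.15. The groups overlapped, and wild-type replicate 3 was the lowest of the 6 hearts. The chaperone Hspa5 differed by 0.11 (interval -0.22 to 0.44) and the lectin chaperone Canx by 0.01 (interval -0.19 to 0.21). The median of the 3 genes was 0.11, against 0.01 over all probe sets. Txndc12, a thioredoxin-like protein of the ER lumen, differed by -0.01 (interval -0.22 to 0.21). The list does not hold every measured ER gene. Outside it, Cyp2e1, a cytochrome P450 of the ER, differed by 0.28, more than the brighter Prdx4 probe set. The probe sets of Sec61a1, the pore subunit of the ER protein channel, differed by 0.003, 0.09 and 0.17.

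Of the list of thiol and peroxide enzymes outside the members, 2 of 34 genes were measured, Txndc12 and Txnip, and 0 passed. Txnip, which binds thioredoxin and inhibits it, was among the most variable probe sets of the table. Its brighter probe set read 10.81, 11.38 and 10.44 in knockout hearts and 11.12, 10.83 and 10.35 in wild-type hearts, a difference of 0.11 that was far within the spread (SD 0.48 in knockout and 0.39 in wild-type hearts). Its dimmer probe set differed by 0.14. Of the genes listed as sources of NADPH, 2 of 12 were measured, and all 4 of their probe sets had lower means in knockout hearts without passing the test. Mthfd1, a folate enzyme that makes NADPH, differed by -0.10 and -0.08, and the groups did not overlap in its brighter probe set (7.46, 7.43 and 7.47 in knockout and 7.53, 7.58 and 7.55 in wild-type hearts). Nadk, the kinase that makes NADP, differed by -0.12 and -0.01. Mgst1, a membrane-bound glutathione transferase and the 1 measured gene of 14 driven by the antioxidant factor NRF2, differed by 0.04 and -0.13. Its dimmer probe set read 3.27 in knockout and 3.40 in wild-type hearts, near the lowest value measured (2.56). In the mitochondria Phb2, a scaffold protein of the inner membrane and the 1 measured gene of 9 of the import and chaperone list, differed by -0.28 (interval -0.45 to -0.10). It did not pass over the table.

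**Figure D4:**
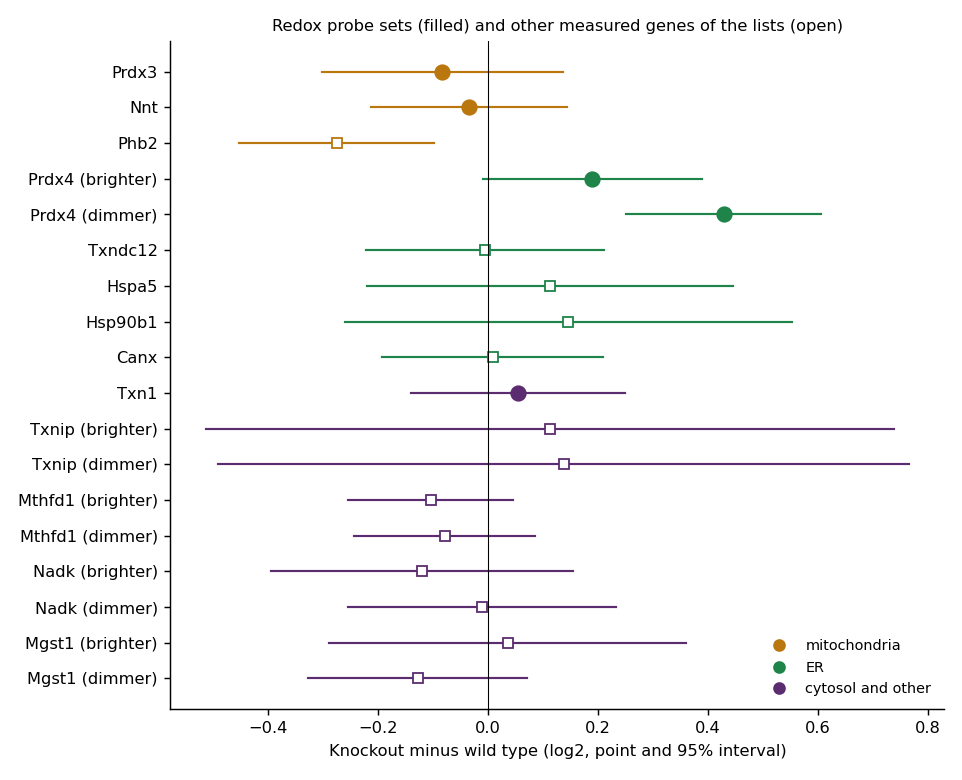
Knockout minus wild-type difference (log2) with its 95% interval for the 5 member probe sets (filled circles) and the other measured genes of the lists (open squares), grouped by compartment. The NADPH and NRF2 lists, the membrane-bound Mgst1 included, are drawn whole under cytosol and other. The points of Prdx4 (0.19 and 0.43) lie to the right of the few other genes drawn under ER, which run from -0.01 to 0.15. ER genes outside the lists are not drawn, such as Cyp2e1 (0.28). Both Prdx4 intervals overlap that of Hsp90b1 (-0.26 to 0.55). The points of Prdx3, Nnt and Phb2 of the mitochondria lie left of 0, and the intervals of Prdx3 and Nnt include 0.

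Markers of other cells that a heart holds were scarce, and their part in the Prdx4 values was not tested. No fibroblast, smooth muscle, fat or skeletal muscle marker of the lists was among the measured genes. Of the endothelial markers 1 of 6 was measured (Tie1, -0.08), of the leukocyte markers 1 of 8 (Mpo, 0.10) and of the red cell markers 2 of 6 (Bpgm, 0.31 and 0.46, and Car1, 0.13). Mpo (3.59 in knockout and 3.50 in wild-type hearts) and Car1 (4.05 and 3.92) read low, where the lowest value measured was 2.56. Prdx4 is known for high levels in antibody-secreting cells. Of the 5 markers of such cells only Sdc1 was measured, with a difference of -0.43 in its brighter probe set and 0.01 in its dimmer one.

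By position, the genes lie on 4 chromosomes, none of which is chromosome 18 with the deleted Ppargc1b. Prdx3 is on chromosome 19, Txn1 on chromosome 4, Nnt on chromosome 13 and Prdx4 on the X chromosome. The sex of the hearts was not checked here, since none of the 5 sex-linked markers of the lists had values. Of the 19 X-linked probe sets with values, for 17 genes, 10 had higher and 9 lower means in knockout hearts, with a median difference of 0.04. The dimmer Prdx4 probe set had the largest positive difference of these 19. Besides the Prdx4 probe sets, those of Hnrnph2 (0.38), Morf4l2 (0.26) and Rps4x (0.21) had all knockout hearts above all wild-type hearts. This makes 5 of the 19 probe sets, against the 9.64% over the table. The 5 include those of Prdx4, a gene chosen on this difference, so nothing is read from the count. Nsdhl (-0.15), a sterol enzyme, had all knockout hearts below all wild-type hearts. No test was made of these counts.

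The members did not vary together as 1 group across the 6 hearts. Over the 6 arrays Pearson's r between the Prdx4 probe sets was 0.81, and 0.38 once each genotype was centred on its own mean, so much of it came from the shared difference between the genotypes. Prdx3 ran against the brighter Prdx4 probe set (r = -0.77, and -0.78 after centring), and Txn1 ran with it (0.66 before and after centring). With the dimmer Prdx4 probe set r was -0.53 for Prdx3 and 0.54 for Txn1, and -0.60 and 0.87 after centring. Prdx3 also ran against Txn1 (-0.62, and -0.57 after centring). Nnt had no correlation above 0.43 in size with any other member over the 6 arrays. With 6 arrays these values are descriptions without a test, and all points share the normalization of their array.

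The probe sets of other genes most like each member over the 6 arrays were picked from the table by Pearson's r. For the brighter Prdx4 probe set they were Cyp2e1 (0.99), a cytochrome P450 of the ER, Rps26 (0.95), a ribosomal protein, and Sec61a1 (0.95), the pore subunit of the ER protein channel, with r of 0.99, 0.91 and 0.89 after centring within genotype. For the dimmer one they were Rps29 (0.95), Vta1 (0.94) and Cldn11 (0.94), with 0.35, 0.90 and 0.37 after centring. Prdx3 was most like Cdk16 (0.95), Mtif2 (0.95), the mitochondrial translation initiation factor, and Fuca2 (0.94). Txn1 was most like Map4 (0.98), Kit (0.96) and Copg1 (0.94), and Nnt was most like Ddr1 (0.88), Ddx24 (0.85) and Cox5a (0.82), a subunit of cytochrome c oxidase. Each of these values is the highest of a search through the whole table and is high by selection. The matched probe sets of Cldn11, Fuca2 and Kit had mean levels of 2.7, 3.5 and 3.5, near the lowest value measured (2.56).

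**Figure D5:**
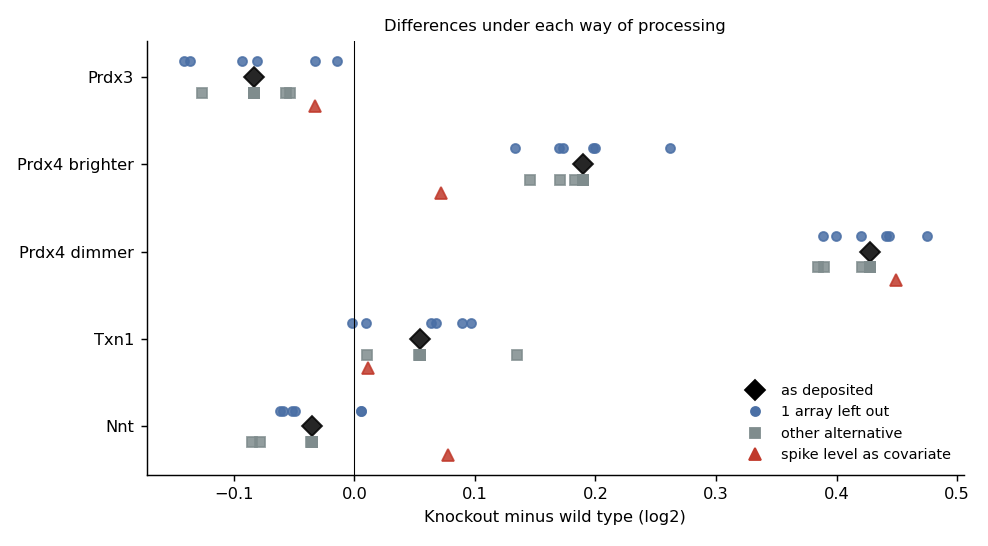
Knockout minus wild-type difference (log2) of the 5 probe sets as deposited (black diamonds), with 1 array left out (blue circles), adjusted for the spike level of each array (red triangles) and under the other alternatives (grey squares). The dimmer Prdx4 probe set stays between 0.38 and 0.47, the brighter one between 0.07 and 0.26, and Txn1 and Nnt cross 0.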

How the data were processed

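Frozen hearts were used, per the labels' protocols, and RNA was extracted with Trizol and a column kit, amplified as whole transcriptome and then converted to labelled cRNA, so the spread between arrays includes that of amplification. The authors deposited log2 values with 1 column per array, and GCOS, Partek and RMA are named in the submitters' processing notes without versions. RMA removes shifts shared by all genes of an array. No genome build is named there. Values were present for 643 probe sets and 64 controls, the first 643 rows and the controls of a table of 45101 rows. The other rows were blank and were not analysed here, so the measured genes are not a random sample. Columns were mapped by sample, with 0 unmapped. The platform annotation, which can be old, gave 1 symbol for 597 probe sets, all matched to RefSeq (GRCm38.p6), and several or none for 46.

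Differences are knockout minus wild-type from limma 3.58.1 in R 4.3.3 (lmFit, eBayes) over the 643 probe sets, without further normalization, filter or covariate, with Benjamini-Hochberg adjustment. The code was tested on simulated data. The number of arrays limits the precision. The members, the lists of neighbouring genes and markers, and the motifs were chosen with earlier results of these data known. Every member probe set is named, at most 4 genes per list, and the 3 most alike probe sets per member. Kitl and the X-linked genes were named after their values were seen. Alternatives were another normalization or centring, other variance models, filters, 1 probe set per gene, the spike covariate, a replicate block and leaving out each array.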

Additional observations from a re-analysis of the deposited data

How the results depend on the processing

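With 3 arrays per genotype, blank rows for most of the array's genes and no detection calls, small differences of Prdx3, Txn1 and Nnt cannot be told from 0 and the dimmer Prdx4 probe set has no check against background. The difference of that probe set stayed positive, between 0.38 and 0.47, in its 14 alternatives, and that of Prdx3 negative in all 15. The filters, the replicate block and a prior variance that follows expression leave a difference unchanged, so its sign was fixed in those settings. The difference of the brighter Prdx4 probe set was 0.0721 with the spike covariate, whose level was lower on all knockout arrays. The cause was not tested. Nnt turned to 0.0778 with that covariate. Leaving out single arrays gave -0.0618 to 0.00580 for Nnt and -0.00226 to 0.0968 for Txn1. The number of member probe sets without overlap was 1 after a further quantile normalization, after centring and with 1 probe set per gene, which keeps only the brighter one of Prdx4. The range of Nnt was 0.288 after a further quantile normalization. A prior variance that follows expression called 2 probe sets over the table, none of them a member, and the lowest adjusted p of a member in any alternative was 0.132 in limma.

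Deviations of same-numbered hearts from their genotype means had correlations of -0.24, -0.10 and 0.19. Those of differently numbered hearts ran from -0.30 to 0.33. These values show no pairing by number, but with so few hearts they cannot exclude it. A replicate block by number leaves the differences unchanged by design, since each number occurs once per genotype. With it the dimmer Prdx4 probe set differed by 0.428 with a standard error of 0.0812, and 0 probe sets were called.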
